A study of Mus musculus with 12 samples.

Results

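Sox9 High and Sox9 Sublow cells of the mouse intestinal epithelium were compared across all genes that could be tested. Both came from C57Bl/6 animals with a Sox9-GFP reporter, in which green fluorescence follows the Sox9 locus and lets a cell sorter divide the epithelium by brightness. High is the brightest gate. Sublow lies under the Low gate and above the Negative gate, and those other gates of the study enter only the estimate of spread and a few levels given for orientation. All libraries carry the reporter, so no gate is free of it. Each gate had 3 samples (A, B and C), and each came from 12000 cells, whose ribosome-depleted RNA was made into a library with a SMARTer Total RNA Pico v2 kit and read single-end. A gene was tested when its normalised read count reached 10 in at least 3 of the 12 libraries of the series, which kept 16577 of 30265 genes. Just inside that limit, the value that decided for 4930503B20Rik was 10.06, and just outside it that of Efna2 was 9.92.

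The intestinal lining renews itself from stem cells at the crypt base, whose daughters divide a few more times and become absorptive enterocytes or secretory cells. Secretory cells are goblet cells, which make mucus, Paneth cells, which make antimicrobial peptides, and enteroendocrine cells, which release hormones. Tuft cells are rare chemosensory cells that use taste signalling proteins and release lipid mediators and interleukin 25. Sox9 is a transcription factor of the crypt, and in work with this reporter High has been described as rich in enteroendocrine and tuft cells and Sublow as rich in progenitors and goblet cells. RNA of a sorted gate is a mixture, so fewer cells of a type and less RNA per cell cannot be told apart.

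The 3 High libraries held 14.9, 14.5 and 15.8 M reads on genes (M, 1e6), against 14.2, 14.9 and 17 M in Sublow. The spread between replicates was smaller in High, where the median standard deviation of a gene was 0.196 on the log2 scale, against 0.374 in Sublow. On principal components of the 6 libraries, the first axis held 78.5% of the variance and separated the gates. The second held 9.65% and ran between Sublow B, at -55.6, and Sublow C, at 73.3, with Sublow A at -15.6 and the High libraries at 4.44, -16.9 and 10.3. No label ties a replicate to an animal, so the p-values rest on the spread between these samples alone, and that spread may be technical. Values below are normalised read counts, given for samples A, B and C in that order unless stated, and differences are of log2(value + 1), High minus Sublow, with the standard error of a limma fit of all 12 libraries. Because that error pools the 4 gates, it can be too small for genes that vary most in Sublow.

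In the reported fit of all 12 libraries, a majority of the genes tested differed. Of the 16577 genes tested, 4421 (26.7%) rose and 4201 (25.3%) fell in High at an adjusted p below 0.05 by limma with Benjamini-Hochberg adjustment, 8622 (52%) in all. A fit of only the 6 libraries compared called 7692 genes, which is not a majority. Against a difference of 2-fold rather than none, 1798 genes (10.8%) were higher and 1101 (6.64%) lower by limma's treat test. In 9721 genes (58.6%) the 3 High libraries did not overlap the 3 Sublow libraries. The rises were larger than the falls. The median called rise was 1.59 and the median called fall -1.19, and 1071 called genes were estimated at 8-fold or more higher, against 421 at 8-fold or more lower. The median over all genes tested was 0.03. The shares of 26.7% higher and 25.3% lower are those to set beside each list count below. For 5665 genes (34.2%) the 95% interval lay wholly within 2-fold in either direction. When libraries were scaled to the same total instead of the deposited scaling, the median of all genes shifted to 0.223 and the split became 5430 higher and 3166 lower, so small differences depend on the scaling. Quantile normalisation shifted the median to -0.108.

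**Figure D1:**
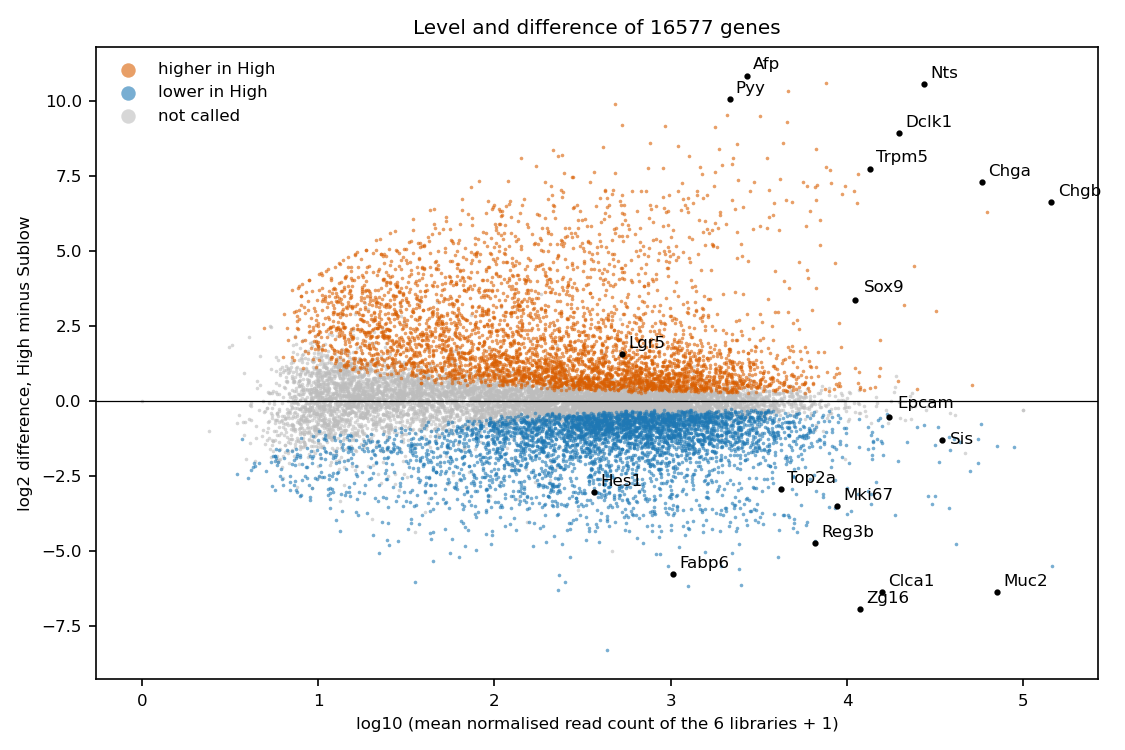
Each point is 1 of the 16577 genes tested, with the log10 of its mean normalised read count over the 6 libraries on the x axis and its log2 difference, High minus Sublow, on the y axis. Orange points are higher in High, blue points are lower in High and grey points are not called, and the largest rises reach above 10 while the largest falls of labelled genes lie near -7.

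Sox9 itself, on which the cells were sorted, had 18857, 21059.5 and 20868 in High, against 1955, 1259 and 3039 in Sublow, a log2 difference of 3.37. Since the sort set this order, the value checks the labels and is no finding. Epcam, the pan-epithelial adhesion molecule, had 14102, 13649 and 14823 in High, against 17571, 21771 and 21490.2 in Sublow (log2 difference -0.51 ± 0.14, adjusted p = 0.00818), and the call was lost under quantile normalisation (log2 difference -0.18, adjusted p = 0.278). Cdh1, which encodes E-cadherin, was not called (log2 difference -0.29 with a 95% interval of -0.56 to -0.02). It passed as lower by limma with median-of-ratios scaling of the 6 libraries or with array weights, and by DESeq2. The adjusted p of these fits ran from 0.0118 to 0.0466. The reported estimates of Epcam and Cdh1 both lay within 2-fold.

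High was marked by enteroendocrine and tuft genes and Sublow by goblet and proliferation genes. The enteroendocrine granule gene Chga and the tuft kinase gene Dclk1 were far above Sublow in each High library, and the goblet mucin gene Muc2 and the proliferation gene Mki67 were far below it. Sublow also held more RNA of the enterocyte sucrase gene Sis, with 14569.9, 20218 and 19088 in High, against 42590.1, 89387 and 21066 in Sublow (log2 difference -1.28 ± 0.44, adjusted p = 0.028). The groups did not overlap, but Sublow C lay close to the High libraries, and the call was lost without Sublow A (-1.29, adjusted p = 0.0608), Sublow B (-0.75, adjusted p = 0.107), High A (-1.13, adjusted p = 0.0898) or High C (-1.33, adjusted p = 0.0556). For orientation, mean Sis was 6985 (lowest to highest 4679 to 10405) in Low and 146129.9 (lowest to highest 107551 to 166459) in Negative.

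**Figure D2:**
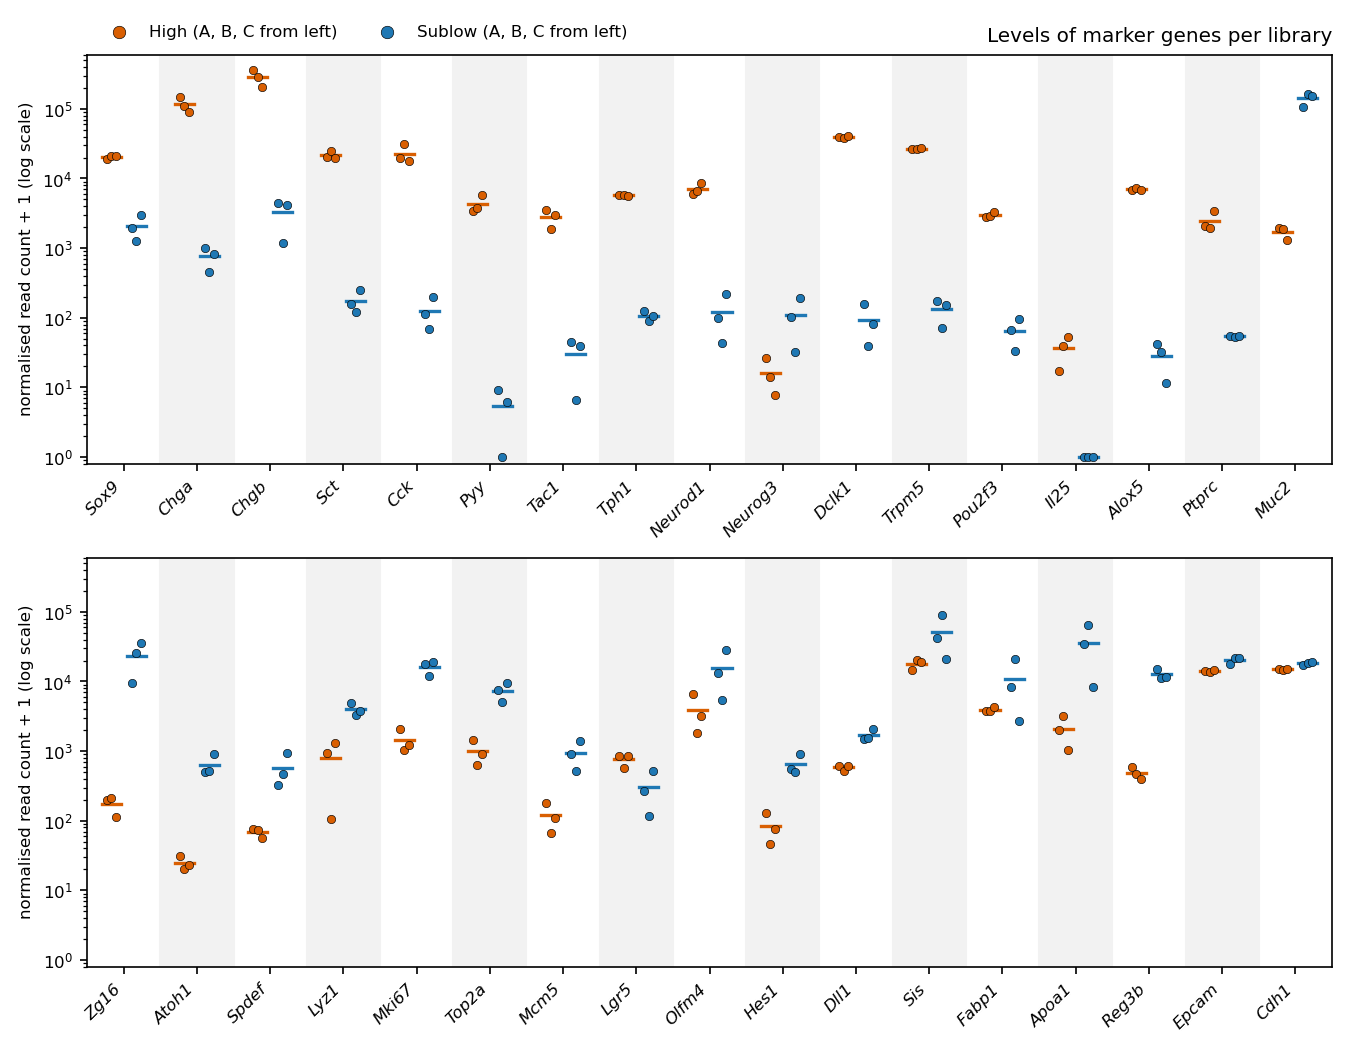
Normalised read counts plus 1, on a log scale, of marker genes in each library, with High in orange on the left and Sublow in blue on the right of each gene, and bars at the means. Chga, Dclk1 and Trpm5 lie more than 1 decade higher in High, Muc2, Zg16 and Atoh1 lie more than 1 decade lower, and Epcam and Cdh1 are nearly level.

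The 15 largest rises among well expressed named genes were mostly genes known from tuft and enteroendocrine cells. Nts, the neurotensin gene, had 48416, 42842 and 73239 in High, against 122, 1.12 and 159 in Sublow (log2 difference 10.59 ± 1.28, adjusted p = 2.5e-05). Afp, which encodes alpha-fetoprotein and is best known from fetal liver, had 6758, 4532 and 4899 in High, against 22.5, 0 and 0 in Sublow (log2 difference 10.86 ± 1.07, adjusted p = 4.56e-06). The 3 High libraries were far above every Sublow library in both, and Sublow B held the fewest or no reads. Pcdh20, a protocadherin gene, had 865, 952 and 1075 in High and no read in any Sublow library. Against a floor of 3 reads over the Sublow gate, it was at least 958-fold higher. Siglecf (10.35), a sialic acid binding lectin of eosinophils and tuft cells, the hormone gene Pyy (10.09), the irritant channel gene Trpa1 (9.54), the G protein regulator Rgs13 (9.51), Sh2d6 (9.33), Sbpl (9.21), Basp1 (9.18), Nrgn (9.13), Dclk1 (8.95), the phosphatase gene Inpp5d (8.63) and Ccdc129 (8.60) were also among these rises, given as log2 differences.

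The 15 largest falls were led by goblet genes. Zg16, a mucus-layer lectin that binds bacteria, had 196, 213 and 113 in High, against 9432, 25979 and 35248 in Sublow (log2 difference -6.93 ± 0.58, adjusted p = 1.33e-06). Muc2, the gel-forming mucin of the intestine, had 1945, 1864 and 1298 in High, against 107602, 164377 and 151048 in Sublow (log2 difference -6.37 ± 0.38, adjusted p = 9.02e-08), and Clca1, a protease of the mucus layer, had a log2 difference of -6.37. No High library came near a Sublow library for these genes. Fer1l6 (-6.16), Capn9 (-5.78), Ccl6 (-5.60), Fcgbp (-5.50), Guca2a (-5.48), Bcas1 (-5.48), Chst4 (-5.18) and Spink4 (-5.17) are also genes of goblet or other secretory epithelium. Ido1, which degrades tryptophan, fell by 6.30 on the log2 scale, and Fam151a (log2 difference -6.02) and Fabp6 (-5.76), the ileal bile acid binding protein, fell nearly as far. The histone gene Hist1h2ao also entered (-6.11) with 518, 0.921 and 312 in High, so that High B, near 0, sets much of its value (log2 difference -3.54, adjusted p = 0.000977 without that library), and reads of near-identical histone copies cannot be placed with certainty.

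**Figure D3:**
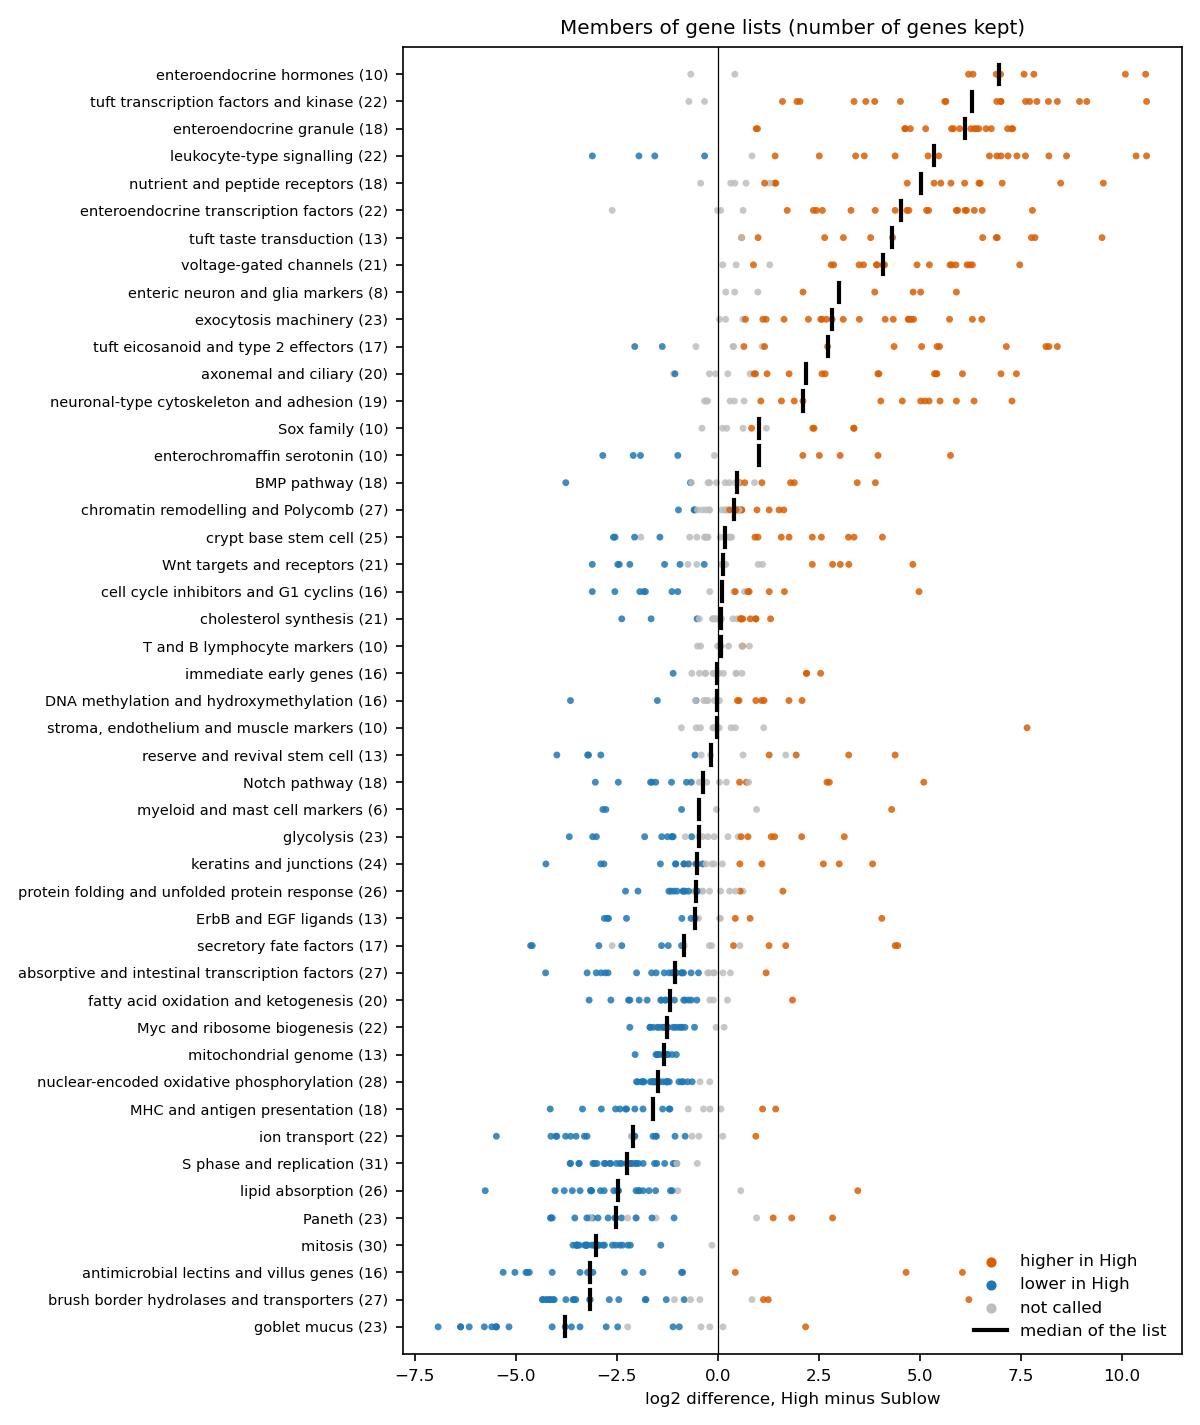
Log2 differences, High minus Sublow, of the members of gene lists, 1 row per list with the number of genes tested in brackets, ordered by the median, which is the black bar. Orange members rose in High, blue members fell and grey members were not called, and enteroendocrine and tuft lists stand at the top while goblet, brush border and cell division lists stand at the bottom.

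Hormone genes were among the highest above Sublow. Of 14 hormone genes listed, 10 were tested and 8 rose, with a median log2 difference of 6.95 against 0.03 over all genes. Gip, the incretin of K cells, had 111408, 138271 and 120100.3 in High, against 1599.9, 851 and 2680.1 in Sublow (log2 difference 6.32 ± 1.11, adjusted p = 0.000466). Cck, the cholecystokinin gene of I cells, had 19561, 31266 and 17713 in High, against 113, 67.1 and 198 in Sublow (log2 difference 7.58 ± 0.72, adjusted p = 3.46e-06). Secretin (Sct, 7.0), proglucagon (Gcg, 7.82), ghrelin (Ghrl, 6.21), peptide YY, neurotensin and tachykinin 1 (Tac1, 6.89) rose as well. In 9 of 10 hormone genes, Sublow B was the lowest Sublow library.

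Somatostatin did not follow the other hormones. Sst, the product of D cells, had 1036, 430.3 and 746 in High, against 1512, 591 and 1503 in Sublow, and the ranges overlapped (log2 difference -0.67, adjusted p = 0.725). Its interval, from -3.81 to 2.46, is too wide to bound the difference. Mean Sst was 4873 (lowest to highest 3566 to 7428) in Low. Adm, which encodes adrenomedullin, had 21.7, 33.2 and 32.1 in High, against 25.5, 25.7 and 14.1 in Sublow and was not called either (log2 difference 0.42 ± 0.50, adjusted p = 0.506).

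The granule machinery rose as a block. All 18 granins, prohormone convertases and vesicle proteins tested were higher in High, with a median of 6.12 and a range from 0.95 (Pcsk2) to 7.30 (Chga). Chga had 150003, 108273 and 90732 in High, against 1009, 456 and 816 in Sublow (log2 difference 7.30 ± 0.39, adjusted p = 3.47e-08). Chgb, the chromogranin B gene, had 360162, 288326 and 208621 in High, against 4462, 1169 and 4189 in Sublow (log2 difference 6.64 ± 0.80, adjusted p = 2.34e-05). High and Sublow were far apart for both granins, and Sublow B was the lowest library. Carboxypeptidase E (Cpe, 7.27), secretogranin 2 (Scg2, 7.17), the convertase Pcsk1 (5.78) and the granule receptor Ptprn2 (4.63) rose strongly, whereas the second convertase, Pcsk2, rose by 0.95 and Rab3d by 0.98. Without High C, Pcsk2 lost its call (0.84, adjusted p = 0.0613).

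Late enteroendocrine transcription factors were high and the initiating factor was not. Of 22 tested, 18 rose and none fell by limma, with a median of 4.53. Neurod1, which drives endocrine differentiation, had 5933, 6555 and 8737 in High, against 98, 42.5 and 218 in Sublow (log2 difference 6.15 ± 0.42, adjusted p = 2.61e-07). Pax6 (4.68), Rfx6 (5.90), Isl1 (5.94), Myt1 (5.22) and the serotonin lineage factor Fev (6.55) rose too. Neurog3, the transient factor that commits progenitors to the endocrine fate, had 25.3, 12.9 and 6.76 in High, against 103, 31.3 and 193 in Sublow. High was below Sublow without overlap, but the difference missed the threshold (log2 difference -2.62 ± 1.11, adjusted p = 0.0666). It passed in several alternatives, among them the fits without Sublow B (-3.33, adjusted p = 0.0353), Negative A (-2.62, adjusted p = 0.0404) or Negative B (-2.62, adjusted p = 0.00405) and, on recovered reads, edgeR (-2.86, adjusted p = 0.0107) and DESeq2 (-2.87, adjusted p = 0.000844). Mlxipl, Sox4 and Hhex were not called, at 0.07, 0.62 and -0.01.

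Of 10 serotonin genes tested, 5 rose and 4 fell, against 26.7% and 25.3% of all genes. Tph1, the rate-limiting enzyme of serotonin synthesis in the gut, had 5821, 5735 and 5679 in High, against 125, 88.3 and 105 in Sublow (log2 difference 5.76 ± 0.26, adjusted p = 1.07e-08). The decarboxylase Ddc (2.10), the vesicular transporters Slc18a1 (3.96) and Slc18a2 (2.51) and the cofactor enzyme Gch1 (3.03) rose with it. Maoa, which degrades serotonin, had 780.4, 875 and 841 in High, against 5516, 9117 and 4293 in Sublow (log2 difference -2.85 ± 0.25, adjusted p = 2.02e-06). Maob (-2.10) and the uptake transporter Slc6a4 (-1.92) were lower in High without overlap. So was Spr (-0.99), which acts in the same cofactor synthesis as Gch1, and Pts, another enzyme of that synthesis, was not called (-0.09). Maoa, Maob and Slc6a4 were higher still in Negative, at means of 13743 (lowest to highest 10978 to 15691), 1882 (lowest to highest 1418 to 2418) and 989 (lowest to highest 889 to 1052).

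Sensing, excitability and release genes rose with the hormones and none fell. Among receptors for nutrients and peptides, 13 of 18 tested rose (median 5.02), among voltage-gated channels 18 of 21 (median 4.09) and among exocytosis genes 20 of 23 (median 2.83). The long-chain fatty acid receptor Ffar1 (7.04), the short-chain fatty acid receptor Ffar3 (8.49), the lipid receptor Gpr119 (6.49) and the calcium-sensing receptor Casr (5.77) gave large differences, while Ffar2 differed by 1.41. Trpa1, a channel by which enterochromaffin cells detect irritants, had 5179, 3058 and 4317 in High, against 13.3, 0 and 10.5 in Sublow (log2 difference 9.54 ± 0.95, adjusted p = 4.8e-06). Cacna1a, the P/Q-type calcium channel, had 11269, 11822 and 10752 in High, against 736, 493 and 737 in Sublow (log2 difference 4.13 ± 0.19, adjusted p = 1.48e-08). Both subunits of the ATP-sensitive potassium channel, Abcc8 (6.30) and Kcnj11 (6.17), rose, as did Snap25 (5.74), Cplx2 (4.34) and the priming factor Cadps (6.30). Lpar5, Adra2a, Kcnq1, Cadps2 and Rph3a were not called, at -0.43, 0.42, 0.12, 0.19 and 0.04, and Lpar5 passed without Sublow C (-0.65, adjusted p = 0.028).

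Most cytoskeletal genes usually read as neuronal rose. Of 19 tested, 13 rose, none fell in the reported fit and 6 were not called (median 2.11). Among the rises were Map1b (6.34), Map2 (7.28), the neurofilament genes Nefm (4.03) and Nefl (5.50) and the splicing factor Celf3 (5.23). Ncam1, Dpysl3 and Mapt were not called, at -0.33, 0.65 and -0.29. Without Sublow C, Ncam1 (-0.62, adjusted p = 0.0425) and Dpysl3 (0.84, adjusted p = 0.0269) passed, in opposite directions. Of 20 axonemal genes tested, 14 rose and 1 fell, against 26.7% and 25.3% of all genes. The gene that fell, Dnah2 (-1.06), lost its call without High C (-0.97, adjusted p = 0.0704) or Sublow B (-0.59, adjusted p = 0.0764). Dnah9, a ciliary dynein heavy chain, had 2683, 2698 and 3163 in High, against 79.6, 22.4 and 40.4 in Sublow (log2 difference 6.05 ± 0.41, adjusted p = 2.29e-07), Dnah6 differed by 7.01 and the tubulin Tuba1a by 7.39, while Foxj1, the master factor of motile cilia, did not reach the limit for testing.

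The tuft programme rose across its taste, transcription and effector genes. Among taste transduction genes 12 of 13 tested rose, with a median of 4.32. Trpm5, the cation channel at the end of the taste cascade, had 26565, 26473 and 27153 in High, against 173, 70.4 and 149 in Sublow (log2 difference 7.76 ± 0.38, adjusted p = 1.74e-08). Plcb2 (6.89), the gustducin alpha subunit Gnat3 (7.85) and the succinate receptor Sucnr1 (6.56) rose with it, the inositol receptor Itpr3 rose by only 0.59, and the sweet and umami subunit Tas1r3 was not called (0.58). Tas1r3 passed without Sublow A (0.80, adjusted p = 0.0149), High B (0.71, adjusted p = 0.0453) or Negative C (0.58, adjusted p = 0.0419).

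Among tuft transcription factors and signature genes, 20 of 22 tested rose, Sox9 included, and none fell by limma (median 6.28). Pou2f3, the factor without which tuft cells do not form, had 2813, 2869 and 3277 in High, against 65.3, 32.4 and 94 in Sublow (log2 difference 5.65 ± 0.31, adjusted p = 3.78e-08). Dclk1 had 38975, 38051 and 41071 in High, against 154, 38 and 81.7 in Sublow (log2 difference 8.95 ± 0.41, adjusted p = 1.34e-08). The High libraries were close to one another and far above Sublow, where B was lowest. Gfi1b (8.18), Spib (7.01), the actin-binding Avil (7.72), Ptgs1 (8.40) and Cd24a (4.52) rose as well. Vil1, the general villus actin bundler, was not called (-0.72) but passed as lower without Sublow C (-1.15, adjusted p = 0.00153), by edgeR (-0.85, adjusted p = 0.043) and by DESeq2 (-0.86, adjusted p = 0.0183). Ascl2 was not called (-0.33).

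Eicosanoid and type 2 genes were mostly higher, 11 of 17 tested, with 2 lower, against 26.7% and 25.3% of all genes. Alox5, the first enzyme of leukotriene synthesis, had 6907, 7251 and 6729 in High, against 40.8, 31.3 and 10.5 in Sublow (log2 difference 8.12 ± 0.45, adjusted p = 4.39e-08). Alox5ap (8.19), Ltc4s (4.36) and Hpgds (5.43) rose, which are genes of cysteinyl leukotriene and prostaglandin D2 synthesis. Lta4h, which makes leukotriene B4 from the same intermediate, had 1016, 970.3 and 866 in High, against 3857, 4724 and 3391 in Sublow (log2 difference -2.06 ± 0.14, adjusted p = 2.43e-07), and Mgst2 also fell (-1.38). The alarmin gene Il25 had 16.2, 38.7 and 51.5 in High and no read in Sublow, so that it was at least 35.3-fold higher against a floor of 3 reads over the gate. Ptgs2, with 128, 107 and 201, likewise had no read in Sublow and was at least 144-fold higher.

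Genes better known from white blood cells were high in High. Of 22 genes tested on that list, 17 rose and 4 fell (median 5.34). Ptprc, which encodes CD45, had 2110.1, 1933 and 3363 in High, against 53.1, 52.5 and 53.6 in Sublow (log2 difference 5.47 ± 0.25, adjusted p = 1.19e-08). Ptpn6 (5.20), Plcg2 (4.39), Rac2 (7.18), Vav1 (6.72) and Fyb (6.90) rose. Syk (-1.95) and Lat2 (-1.56) fell. So did Trpv6 (-3.11), which the list counts although it encodes an epithelial calcium channel. The fall of Lcp1 (-0.33) lost its call without High A (-0.33, adjusted p = 0.087), High B (-0.32, adjusted p = 0.0966), High C (-0.34, adjusted p = 0.0758), Low B (-0.33, adjusted p = 0.0578), Sublow A (-0.34, adjusted p = 0.0683) or Sublow C (-0.27, adjusted p = 0.0946).

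CD45 is itself a marker of white blood cells. Of markers of single white blood cell types, counted apart from it, the lymphocyte list had 10 of 20 at or above the limit for testing, and its summed level was 609, 856 and 642 in High, against 751, 759 and 514 in Sublow. Cd3e (0.06), Cd3g (-0.51) and Ms4a1 (0.02) were not called, and Cd8a, at 0.61, was the 1 called, a call lost without High B (0.56, adjusted p = 0.108), High C (0.54, adjusted p = 0.117), Sublow B (0.60, adjusted p = 0.076), Sublow C (0.47, adjusted p = 0.111) or any of Low A (0.61, adjusted p = 0.0534), Low B (0.61, adjusted p = 0.0519) and Negative A (0.61, adjusted p = 0.0508). The summed myeloid and mast cell markers were 143, 129 and 87.9 in High, against 179, 119.6 and 269 in Sublow, with 6 of 19 tested and the mast cell gene Mcpt1 at 0 in both gates. Itgam (-2.77) and Cd14 (-2.85) were lower in High. Adgre1, which encodes F4/80, was higher, with 54.1, 35 and 14.4 in High, against 0, 1.12 and 0.879 in Sublow (log2 difference 4.30 ± 0.91, adjusted p = 0.0017). Among stroma, endothelium and muscle markers, Dcn and Lum were at 0 reads in both gates and Col1a1 was not called (-0.12). The sum of that list was 6199.6, 4311 and 4572 in High, against 1624, 1675 and 1260.1 in Sublow, and Vim was its 1 called gene, with 4578, 2870.3 and 3108 in High, against 67.4, 0 and 72.1 in Sublow (log2 difference 7.65 ± 1.46, adjusted p = 0.000837). Of the neuron and glia markers, Ret (4.83), Chat (3.88) and Uchl1 (5.90) rose. The part of other cells in these differences was not tested.

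Goblet genes fell, most of them far. Of 23 tested, 18 fell and 1 rose, with a median of -3.78. Fcgbp, which binds to the mucin network, had 6615, 7276 and 4775 in High, against 195602, 330229 and 332059 in Sublow (log2 difference -5.50 ± 0.47, adjusted p = 1.35e-06). Tff3, the trefoil peptide, differed by -3.41, and Agr2, the disulfide isomerase needed for mucin folding, by -2.48. Every High library was below every Sublow library for Muc2, Fcgbp, Clca1, Zg16, Tff3 and Agr2. Sublow C was the highest Sublow library in 20 of 23 goblet genes and Sublow A the lowest in 21. The glycosyltransferase B3gnt6 rose (2.17) and Galnt3 (-0.42) and Smim6 (0.13) were not called, although Galnt3 passed without Sublow A (-0.56, adjusted p = 0.0157) or Sublow B (-0.49, adjusted p = 0.0434). Mean Muc2 was 82498 (lowest to highest 50863 to 144626) in Low and 22428 (lowest to highest 14602 to 28845) in Negative, so Sublow held the highest mean of the 4 gates.

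Protein folding genes fell by less. Of 26 tested, 16 fell and 2 rose, against 25.3% and 26.7% of all genes, with a median of -0.54. P4hb, a disulfide isomerase, had 8917, 8132 and 6084 in High, against 30031, 42352 and 21226 in Sublow (log2 difference -1.98 ± 0.28, adjusted p = 7.72e-05). Canx (-1.01), Pdia4 (-1.16) and Edem1 (-2.29) also fell, while the chaperones Hspa5 (-0.37) and Hsp90b1 (0.29) were not called and the stress sensor Atf6 rose (1.61).

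Of 17 secretory fate factors tested, 5 rose and 7 fell, against 26.7% and 25.3% of all genes. Atoh1, which sets the secretory fate, had 30.7, 19.4 and 22 in High, against 495, 509.8 and 896 in Sublow (log2 difference -4.64 ± 0.29, adjusted p = 1.26e-07). Spdef, which matures goblet cells, had 74, 71.9 and 55.8 in High, against 326, 467 and 927 in Sublow (log2 difference -2.95 ± 0.37, adjusted p = 3.55e-05). Gfi1, which keeps secretory cells from the endocrine path, differed by -4.60, and Creb3l1 by -1.23. Insm1 (4.39), Runx1t1 (4.45), Foxa1 (1.27) and Foxa2 (1.68) were higher in High, and Xbp1 (-0.15) and Hes6 (-0.21) were not called.

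In the Notch pathway 8 of 18 genes fell and 5 rose, against 25.3% and 26.7% of all genes. Hes1, the main Notch target of absorptive progenitors, had 128, 46.1 and 74.3 in High, against 559.5, 496 and 902 in Sublow (log2 difference -3.03 ± 0.32, adjusted p = 7.48e-06). Dll1, the ligand of early secretory cells, had 619, 509.6 and 615 in High, against 1470.3, 1544 and 2105 in Sublow (log2 difference -1.54 ± 0.19, adjusted p = 2.64e-05). Notch2 (-2.47), Jag1 (-1.63) and the feedback gene Nrarp (-1.67) fell as well. Jag2 (2.76), Notch3 (2.70) and Dlk1 (5.10) rose, and Notch1 (-0.46) and Rbpj (-0.28) were not called. Notch1 passed without Sublow B (-0.89, adjusted p = 0.021).

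Paneth genes were lower in High, and the High libraries were far apart. Of 23 tested, 15 fell and 3 rose (median -2.53). Lyz1, the Paneth lysozyme, had 936, 103 and 1314 in High, against 4873, 3328 and 3792 in Sublow (log2 difference -2.97 ± 0.75, adjusted p = 0.00559), and Itln1 differed by -3.54. High B was the lowest High library in 18 of 23 Paneth genes. Without High B the median of the list was -1.3 in place of -2.53, and Lyz1 kept its call (log2 difference -1.83, adjusted p = 0.00563). Kit (1.83), Wnt3 (2.84) and Habp2 (1.37) were higher in High. The alpha-defensin genes are a family of near-identical copies, so their separate values, such as -3.18 for Defa17 and -3.24 for Defa24, are uncertain.

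Cell division genes were lower in High almost without exception. Of 31 S phase genes tested, 29 fell and none rose (median -2.24), and of 30 mitosis genes 29 fell and none rose (median -3.01). Mki67, expressed by cells in cycle, had 2101, 1040.3 and 1242 in High, against 17530, 11832 and 18764 in Sublow (log2 difference -3.49 ± 0.40, adjusted p = 1.71e-05). Top2a, the topoisomerase of dividing cells, had 1427, 639 and 899 in High, against 7468, 5136 and 9619 in Sublow (log2 difference -2.94 ± 0.43, adjusted p = 0.000123). The replicative helicase subunit Mcm5 had 180.4, 65.4 and 108 in High, against 917, 522 and 1376 in Sublow (log2 difference -2.99 ± 0.55, adjusted p = 0.000677). All 3 genes were separated without overlap, and the lowest Sublow library was B in each. Across the mitosis genes Sublow B was the lowest Sublow library in 28 and Sublow C the highest in 29 of 30, and across S phase genes the counts were 30 and 30 of 31. Pttg1 (-0.15) and Orc6 (-0.51) were not called. None of these S phase or mitosis genes was higher in High at an unadjusted p below 0.05, and edgeR and DESeq2 called none higher.

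Most mitosis promoters held a short known element. The cell cycle genes homology region (CHR), TTTGAA, is the known binding element of the complex that times mitotic transcription. RefSeq promoters on GRCm38.p6, from 250 bases before to 50 after the start, were matched by symbol for 24 of the 30 mitosis genes and for 11675 of the 16577 genes tested, and the first promoter listed was searched on both strands. TTTGAA occurred in 17 of 24 (70.8%) mitosis promoters, in 3 of 26 (11.5%) S phase promoters and in 1456 of 11675 (12.5%) promoters of all genes tested. Among called genes it was in 320 of 3268 (9.79%) of those higher in High and 447 of 3071 (14.6%) of those lower. Within 40 bases of the start it stood in 16 of 24 mitosis promoters (66.7%), against 312 of 11675 (2.67%) overall. The E2F element TTTCCCGC, of replication promoters, was in 4 of 26 (15.4%) S phase, 0 of 24 (0%) mitosis and 219 of 11675 (1.88%) of all tested promoters. The stretches below show where the element lies, with CHR in capitals in the 5 mitotic promoters, as TTCAAA where it is on the opposite strand (Kif11 and Ube2c), and the E2F element in capitals as GCGGGAAA on the opposite strand in the replication gene Mcm3. Each is given 5′ to 3′ on the strand of its gene.
Cdc20 (chr4:118437304-118437403, minus strand): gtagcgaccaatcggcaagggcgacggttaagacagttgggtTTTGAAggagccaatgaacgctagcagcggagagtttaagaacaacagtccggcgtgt
Cdk1 (chr10:69352873-69352992, minus strand): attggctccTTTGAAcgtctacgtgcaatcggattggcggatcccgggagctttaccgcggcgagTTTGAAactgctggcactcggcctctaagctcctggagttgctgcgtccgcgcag
Ccnb2 (chr9:70421515-70421614, minus strand): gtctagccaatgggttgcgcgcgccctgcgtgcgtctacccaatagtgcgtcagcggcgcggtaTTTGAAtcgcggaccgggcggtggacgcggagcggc
Kif11 (chr19:37376322-37376421, plus strand): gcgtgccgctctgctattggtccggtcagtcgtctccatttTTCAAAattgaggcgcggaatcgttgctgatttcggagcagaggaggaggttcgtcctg
Ube2c (chr2:164769869-164769968, plus strand): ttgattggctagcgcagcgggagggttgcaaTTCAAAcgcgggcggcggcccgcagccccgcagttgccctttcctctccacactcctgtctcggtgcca
Mcm3 (chr1:20820273-20820372, minus strand): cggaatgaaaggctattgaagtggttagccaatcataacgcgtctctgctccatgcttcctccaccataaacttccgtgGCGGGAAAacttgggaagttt
Cdc20 activates the anaphase-promoting complex, Cdk1 and cyclin B2 (Ccnb2) drive entry into mitosis, Kif11 is a spindle motor and Ube2c is a ubiquitin-conjugating enzyme. Their log2 differences were -3.07, -3.01, -3.49, -3.12 and -2.81, and that of Mcm3 was -3.66.

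**Figure D4:**
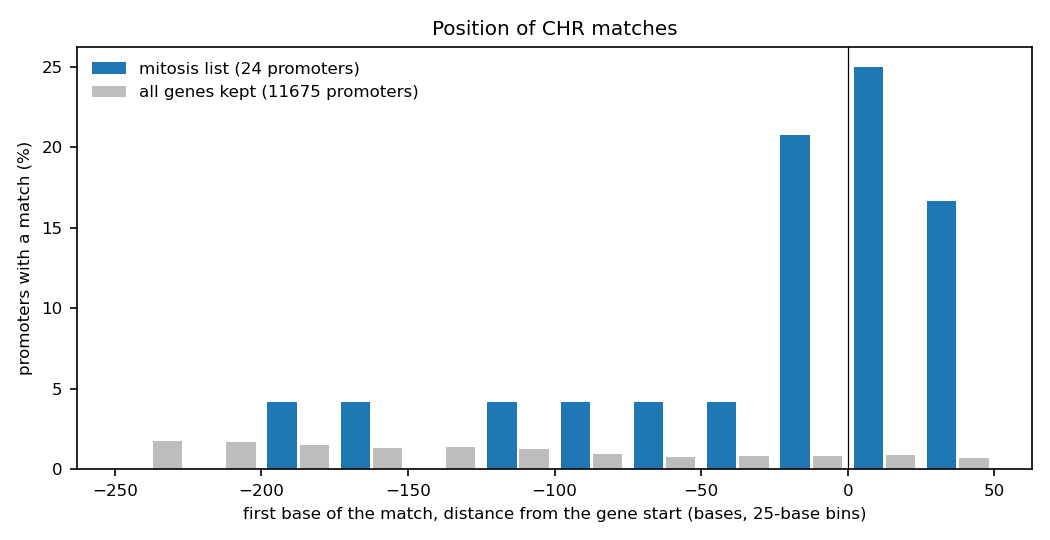
Share of promoters (y axis, percent) with a CHR match whose first base lies in each 25-base bin of distance from the gene start (x axis, bases), for 24 mitosis promoters in blue and the 11675 promoters of all genes tested in grey. The mitosis promoters concentrate in the 3 bins from 25 bases before to 50 bases after the start, with 20.8%, 25% and 16.7%, where the shares over all genes stay below 1%.

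Growth genes fell and some cell cycle inhibitors rose. Of 22 Myc and ribosome biogenesis genes 20 fell (median -1.27). Ncl, the nucleolin gene, had 10119, 8627 and 6954 in High, against 20459, 14511 and 32644 in Sublow (log2 difference -1.33 ± 0.28, adjusted p = 0.00178), Npm1 differed by -1.68 and Myc by -2.18. Cdkn1c, which encodes the inhibitor p57, had 2511, 2572 and 1755 in High, against 79.6, 66 and 65.9 in Sublow (log2 difference 4.98 ± 0.26, adjusted p = 2.98e-08). Cdkn1a, p21, rose by 1.65 and Cdkn1b, p27, by 0.77, whereas the cyclin genes Ccnd1 (-3.11) and Ccnd2 (-1.79) and the inhibitor Cdkn2b (-2.55) fell.

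Of 25 crypt base stem cell markers tested, 9 rose, Sox9 among them, and 4 fell, against 26.7% and 25.3% of all genes. Since the cells were sorted on Sox9, its rise is no finding. Lgr5, the receptor that marks cycling stem cells, had 853, 573 and 853 in High, against 264, 115 and 519 in Sublow (log2 difference 1.57 ± 0.44, adjusted p = 0.0102), with High above Sublow in every library. Olfm4, a secreted stem cell product, had 6590.3, 1830 and 3175 in High, against 13101, 5432 and 28492 in Sublow, the ranges overlapped, and it was not called (log2 difference -1.91 ± 0.86, adjusted p = 0.0809). It was called lower without Sublow B (-2.52, adjusted p = 0.0351), Negative A (-1.91, adjusted p = 0.0382) or Negative B (-1.91, adjusted p = 0.0189). Both were highest in Low, at means of 2476 (lowest to highest 1923 to 3354) and 60843 (lowest to highest 52059 to 70067). Cd44 (2.34), Msi1 (3.23) and Agr3 (4.07) rose and Slc12a2 (-2.06), Cdca7 (-2.59) and Rnf43 (-1.44) fell. Among reserve and revival markers, Prox1 (4.39), Hopx (1.94) and Bmi1 (1.27) were higher in High and Krt19 (-2.90) and Il33 (-3.99) lower.

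Of 21 Wnt genes 5 rose and 7 fell, against 26.7% and 25.3% of all genes. Nkd1, a feedback inhibitor, rose by 3.03 and the secreted inhibitor Wif1 by 4.83, while the targets Sp5 (-2.44), Ccnd1 and Myc fell, and Axin2 was not called (log2 difference -0.52 with a 95% interval of -1.07 to 0.03) but passed without Sublow B (-0.83, adjusted p = 0.00507). Of 18 BMP genes 7 rose and 2 fell, against 26.7% and 25.3% of all genes, and 9 were not called (median 0.465). Among the rises were Bmp2 (1.80), Smad9 (3.45), Id2 (1.89) and Bambi (3.90), and Id4 fell (-3.77). Of 13 genes tested on the list of ErbB receptors and epidermal growth factor family ligands, 7 fell and 3 rose, against 25.3% and 26.7% of all genes. The ligands Areg, Ereg and Hbegf fell, with Areg at -2.81, Ereg at -2.73 and Hbegf at -2.26, as did the receptor gene Erbb2 (-2.71). The receptor gene Egfr and the ligand genes Nrg4 and Nrg1 rose, and the calls of Egfr and Nrg4 were lost in some alternatives. Nrg1 had 16.2, 17.5 and 13.5 in High and no read in Sublow.

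Absorptive genes were lower in High, and the Sublow libraries were far apart. Of 27 brush border genes tested, 20 fell and 3 rose (median -3.17). The summed level of these genes was 81700.4, 98087 and 92910 in High, against 310079.8, 561206 and 124258 in Sublow. Sublow B was the highest Sublow library in 26 and Sublow C the lowest in 26 of 27, the reverse of the cell division genes. Mgam, a maltase, had 5104, 6426 and 4486 in High, against 69169, 110922 and 31415 in Sublow (log2 difference -3.56 ± 0.36, adjusted p = 6.2e-06). Anpep (-3.17), lactase (Lct, -3.76), the sodium-glucose transporter Slc5a1 (-2.69) and Slc2a2 (-4.34) fell. Without Sublow B 18 of the genes were called lower and without Sublow C 23. Alpl, the tissue-nonspecific phosphatase, rose by 6.21, and the intestinal isozyme Alpi had a log2 difference of -4.05.

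Lipid absorption gave the same pattern, with 23 of 26 genes lower in High and 1 higher (median -2.48). Apoa1, an apolipoprotein of chylomicrons, had 2019.9, 3215 and 1034 in High, against 34639, 63813 and 8286 in Sublow (log2 difference -3.80 ± 0.70, adjusted p = 0.000659). Mttp, which loads lipid onto apolipoprotein B, had 1978, 2588 and 1488 in High, against 24982, 42108 and 8737 in Sublow (log2 difference -3.41 ± 0.48, adjusted p = 8.69e-05). Both were lowest in Sublow C, still above every High library. Fabp1 had 3713, 3774 and 4343 in High, against 8417, 21109 and 2699 in Sublow, so the groups overlapped through Sublow C, and it was not called (log2 difference -0.99 ± 0.63, adjusted p = 0.208) but was without that library (-1.76, adjusted p = 0.0141). The lipoprotein receptor Scarb1 rose (3.46). Fatty acid oxidation genes fell in 16 of 20 cases, among them Hadh (-2.18), while Pdk4 rose (1.85). Of 21 cholesterol synthesis genes 8 rose and 3 fell, against 26.7% and 25.3% of all genes. The difference of 14 of the 21 was bounded within 2-fold, against 34.2% of all genes.

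**Figure D5:**
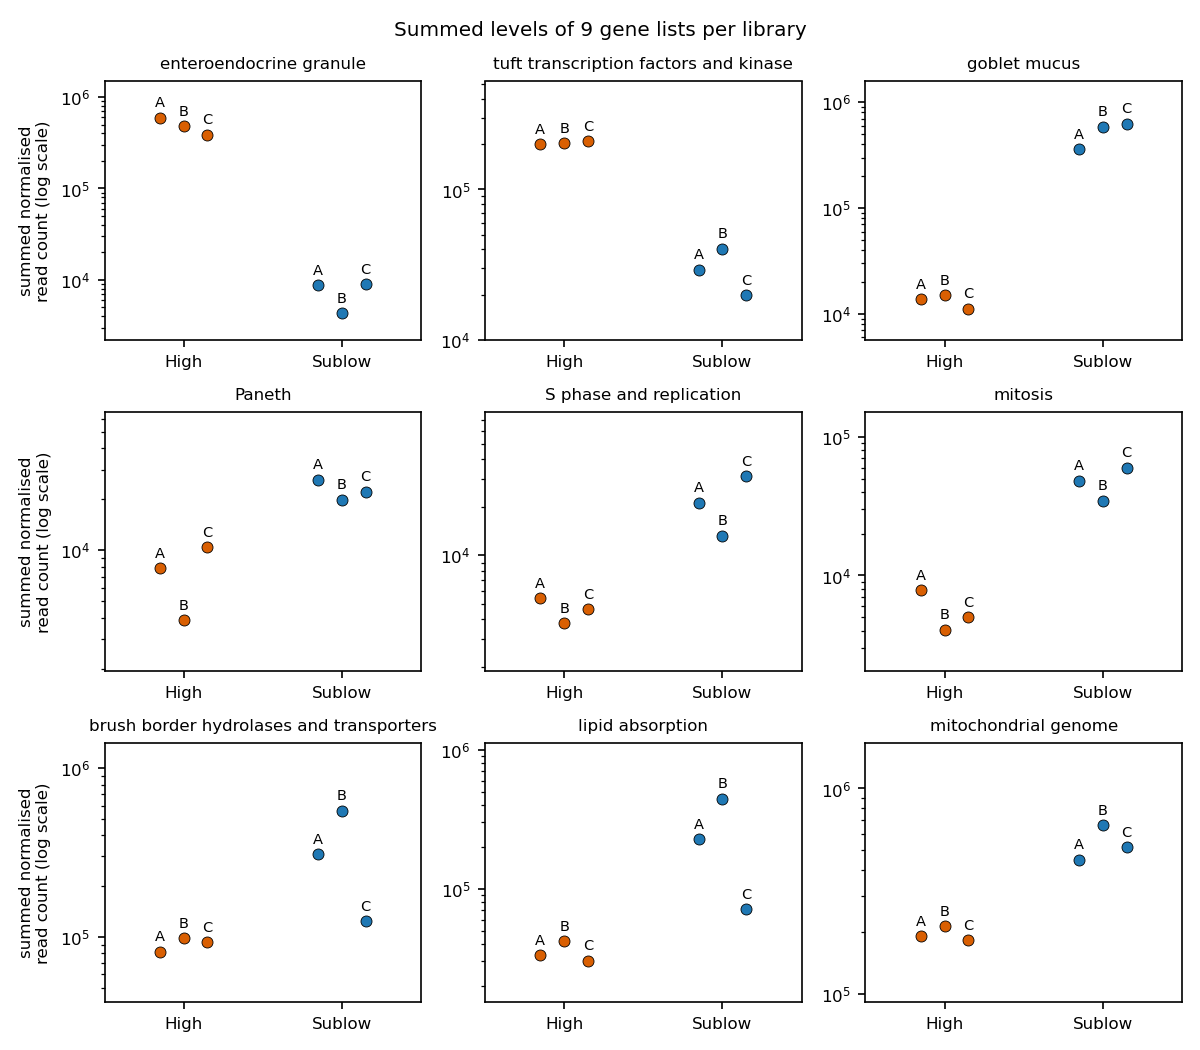
Summed normalised read counts of 9 gene lists in each library, on log scales that differ between panels, with High in orange on the left, Sublow in blue on the right and letters for the replicates. Within Sublow, B is highest and C lowest for brush border and lipid absorption genes while C is highest and B lowest for S phase and mitosis genes, and High B is the lowest library for Paneth genes.

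Intestinal transcription factors fell more often than not. Of 27 tested, 20 fell and 1 rose, against 25.3% and 26.7% of all genes (median -1.05). Hnf4a, a regulator of enterocyte genes, had 4696, 4754 and 5555 in High, against 9601, 9920.1 and 10979 in Sublow (log2 difference -1.03 ± 0.12, adjusted p = 2.21e-05). Its paralogue Hnf4g fell further (-2.89), as did the villus factor Maf (-3.24) and the retinoid-responsive Isx (-4.27). Cdx1 (-0.11), Gata5 (-0.22) and Tcf7l2 (0.12) were not called, and Pparg rose (1.19). The HNF4 element CAAAGTCCA was found in 3 of 24 (12.5%) brush border promoters, those of Alpi, Slc3a1 and Treh, against 57 of 11675 (0.488%) of all genes tested. It was found in none of 21 lipid absorption promoters.

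Of 16 antimicrobial and villus genes tested, 13 fell and 3 rose, against 25.3% and 26.7% of all genes. Reg3b, an antibacterial lectin, had 584, 468 and 392 in High, against 15066, 11179 and 11699 in Sublow (log2 difference -4.72 ± 0.17, adjusted p = 4.24e-09), and Reg3g (-4.67) and Reg1 (-5.03) fell alike, although reads of these close copies cannot be placed with certainty. Reg4, a lectin of endocrine and other secretory cells, had 15548, 13304 and 12854 in High, against 122, 247 and 297 in Sublow (log2 difference 6.05 ± 0.32, adjusted p = 3.44e-08). The adenosine-forming ecto-enzyme Nt5e also rose (4.66). Of 18 antigen presentation genes tested 12 fell and 2 rose, against the same shares of all genes. Of class II genes, Cd74 fell, at -2.43, with H2-Ab1 at -2.28 and the activator Ciita at -1.85. Of genes of class I presentation, B2m (-1.37), H2-T3 (-4.15) and the immunoproteasome gene Psmb8 (-1.19) fell, H2-D1 rose (1.11) and H2-K1 was not called (-0.20). Chloride, bicarbonate and sodium transport genes fell in 17 of 22 cases, including Cftr (-3.65) and Slc9a3 (-3.99), while the guanylin receptor Gucy2c rose (0.94) and the guanylin gene Guca2a fell (-5.48).

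Energy genes of the mitochondria were lower in High. All 13 protein genes of the mitochondrial genome fell (median -1.34), and 26 of 28 nuclear-encoded oxidative phosphorylation genes fell with none higher by limma, edgeR or DESeq2 (median -1.49). mt-Co1, a cytochrome oxidase subunit, had 44695, 48600.5 and 41562 in High, against 106129.6, 174794 and 117637 in Sublow (log2 difference -1.53 ± 0.22, adjusted p = 0.000108). Mitochondrial genes took 1.43, 1.61 and 1.37% of the reads in High, against 3.1, 3.98 and 3.46% in Sublow. The ATP synthase gene Atp5a1 differed by -1.58 and Uqcrc1 by -1.99. Genes of glycolysis and related glucose metabolism were divided. Of 23 tested, 6 rose and 10 fell, against 26.7% and 25.3% of all genes. Hexokinase 1 (Hk1, 3.13) and the glucose transporter Slc2a1 (2.07) were higher in High. The glycolysis gene Gapdh (-1.39) and Pck1 (-3.68), a gene of gluconeogenesis and not of glycolysis, were lower.

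Keratin and junction genes differed member by member, and more fell than rose. Of 24 tested, 13 fell and 5 rose, against 25.3% and 26.7% of all genes. Another 6 were not called, and the median was -0.52. Krt18 had 58611, 66959 and 45134 in High, against 5169, 5805 and 11415 in Sublow (log2 difference 3.0 ± 0.28, adjusted p = 2.82e-06), and Krt23 (3.83) and Krt7 (1.09) also rose. Krt19 had 2786, 2498 and 1837 in High, against 16347, 15335 and 21120.3 in Sublow (log2 difference -2.90 ± 0.20, adjusted p = 2.58e-07). Among claudins, Cldn4 rose (2.61) and Cldn15 (-4.26), which forms cation pores, fell.

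Of 27 chromatin genes tested, 12 rose and 3 fell, against 26.7% and 25.3% of all genes. The difference of 19 of them was bounded within 2-fold, against 34.2% of all genes. By the test against 2-fold, 2 were higher and none lower. The rises of Arid1a, Kmt2d and Kdm5b lost their call in 13, 5 and 3 of the 25 alternatives. The fall of Eed lost its call in 1. Kmt2a (1.63) had the largest rise of the list and Ezh2 the largest fall (-0.98). Of 16 DNA methylation genes tested, 7 rose and 3 fell, against 26.7% and 25.3% of all genes, and 6 were not called. The difference of 7 was bounded within 2-fold. The demethylation enzyme Tet1 (2.08) and the methyltransferase Dnmt3a (1.14) were among the rises. The maintenance pair Dnmt1 (-1.50) and Uhrf1 (-3.65) were among the falls. Of 16 immediate early genes tested 3 rose and 1 fell, against 26.7% and 25.3% of all genes, and 12 were not called. Across all of them, sample A was the lowest High library in 16 and the lowest Sublow library in 14. Fos (-0.64), Jun (-0.10) and Egr1 (0.46) missed the threshold, although Fos passed by edgeR (-0.67, adjusted p = 0.0405) and DESeq2 (-0.68, adjusted p = 0.0233), without Sublow A (-0.94, adjusted p = 0.00573) or Negative B (-0.65, adjusted p = 0.049) and Egr1 without Sublow C (0.71, adjusted p = 0.0264), while Nr4a2 rose (2.54) and Fosl2 fell (-1.11). Beside Sox9, Sox5 (3.36), Sox8 (2.35), Sox12 (2.38) and Sox13 (0.83) rose among the 10 Sox genes tested.

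Elements known from enteroendocrine and tuft genes were searched in the same way. The E-box CAGCTG, which is bound by factors of the Neurod1 class, was in 6 of 16 (37.5%) granule promoters and 3 of 10 (30%) hormone promoters, against 1787 of 11675 (15.3%) of all genes tested, 560 of 3268 (17.1%) of those higher and 436 of 3071 (14.2%) of those lower in High. The octamer ATGCAAAT, the element of the POU factor class to which Pou2f3 belongs, was in 2 of 13 (15.4%) taste promoters and 2 of 14 (14.3%) eicosanoid promoters, in none of 16 promoters of tuft transcription factors and signature genes, and in 167 of 11675 (1.43%) of all tested. The numbers are small, and a match describes letters, not binding. The stretches below carry these elements in capitals in genes named above, on GRCm38.p6 and 5′ to 3′ on the strand of the gene, with the E-box in Chga and Sct, the octamer in Sucnr1 and the HNF4 element in Alpi.
Chga (chr12:102554751-102554870, plus strand): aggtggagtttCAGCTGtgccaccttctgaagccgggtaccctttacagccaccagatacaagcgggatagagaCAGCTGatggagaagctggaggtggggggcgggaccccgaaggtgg
Sct (chr7:141279184-141279283, minus strand): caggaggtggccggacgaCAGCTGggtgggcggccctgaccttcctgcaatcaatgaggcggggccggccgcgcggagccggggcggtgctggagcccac
Sucnr1 (chr3:60081789-60081888, plus strand): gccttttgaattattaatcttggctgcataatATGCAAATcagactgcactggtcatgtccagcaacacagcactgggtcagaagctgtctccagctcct
Alpi (chr1:87101567-87101666, minus strand): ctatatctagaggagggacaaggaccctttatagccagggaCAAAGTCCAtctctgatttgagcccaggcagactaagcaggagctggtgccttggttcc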

How the data were processed

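RNA sequencing of sorted epithelial cells was analysed for 6 of 12 libraries, 3 per gate, with the other 6 in the fit. The authors deposited 1 table with a normalised signal value per gene and library. In every library 100% of values divided by 1 step gave whole numbers (tolerance 0.01), so whole read counts were recovered as value over step. The aligner, counting program, genome build and annotation are steps not given in the sources used here. Groups came from the labels. Strand of counting is not given, so reads of overlapping antisense genes cannot be told apart.

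Deposited values were used as log2(value + 1) in limma 3.58.1 (trend, R 4.3.3, prior degrees of freedom 4.1, residual 8) with a 95% interval, with Benjamini-Hochberg adjustment over all 16577 genes and a threshold of adjusted p below 0.05. On the recovered reads, edgeR 4.0.16 (quasi-likelihood, TMM) called 8770 genes and DESeq2 1.42.0 called 9067. The scripts were tested on simulated data. A floor of 3 reads over a gate bounds folds against 0 and covers counting error only. Promoters are RefSeq sequences of GRCm38.p6, and figures were drawn with matplotlib 3.10.9.

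The genes compared, the 47 gene lists and the motifs were chosen with earlier results of these data known. The text names the 15 largest rises and falls among called, non-overlapping genes with a mean of at least 100, a fixed marker panel, and list members (the 5 called with the highest mean, up to 5 against the majority, up to 3 not called). Other list members named were chosen after their values were seen. Some genes the rule names are not reported here. Predicted genes, RIKEN clones and small RNAs were skipped. Alternatives were the replicate block, pseudocounts 0.5 and 5, no filter, a mean of at least 50, 3 other scalings, array weights, robust fitting, the 6 libraries alone, the count tests, and leaving out each library.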

Additional observations from a re-analysis of the deposited data

How the results depend on the processing

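The 5 counts over all genes stayed within 1.5 times of the reported ones in each alternative that gave a value, as did the counts of granule, tuft, goblet, S phase, mitosis, brush border, lipid absorption and oxidative phosphorylation genes in their main direction. Genes called were 8622, with 7545 to 8655 over the fits that left out 1 library and 11077 with array weights. edgeR gives no interval, so genes bounded within 2-fold were not counted there, and the myeloid markers had no median at a mean of at least 50. No gene called both in the reported fit and in an alternative changed sign between them. Of 490 genes followed by name, 373 were called and 353 of these had a value in all 25 alternatives, of which 319 kept their call throughout. Of all 373, 37 lost it in at least 1. Medians near 0 changed sign in some alternatives, that over all genes among them (-0.108 with quantile normalisation and -0.0511 at a mean of at least 50), and the Notch pathway, median log2 difference, which was -0.37, was 0.0365 without a filter on low values, which adds members with few reads.

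With the replicate block, 9373 genes were called, and of named genes that the reported fit did not call, Neurog3, Olfm4, Tas1r3, Vil1, Galnt3, Hspa5, Fos, Egr1 and Axin2 passed. The letters are shared by the gates, but no label says what they stand for, so the reported fit did not pair samples by letter. Same-letter deviations of High and Sublow correlated at 0.0521 (A), 0.182 (B) and 0.134 (C). Weak as these values are, each library correlated best with its own letter in the other gate. Whether the letters pair the samples was not tested, and the reported fit ignores any effect that a letter shares across gates.

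Depth limits genes near the testing limit of 10, and a gene with no read in Sublow is bounded only by the floor. Replicates spread more in Sublow than in High.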
